A study of Mus musculus with 16 samples.

Results

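The 38 genes described here are interferon-stimulated genes of the mouse. They were given as a list of symbols, and each symbol was matched to 1 of the 55359 gene IDs in the count files. All 38 had enough reads to be tested, among 17531 tested genes in all, so no member was lost to the filter on low counts. The rule that lists them uses no measured value.

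RNA came from dorsal skin of mice that were male and 8 weeks old. Their skin is labelled telogen, when hair follicles rest. The 16 libraries fall into 4 groups of 4: TNFR1/2 double knockout (KO) skin after 3xUVB, KO skin without UVB, wild-type (WT) skin after 3xUVB, and WT skin without UVB. TNFR1 and TNFR2, encoded by Tnfrsf1a and Tnfrsf1b, are the receptors of the cytokine TNF. The labels state neither the alleles nor the UVB dose, nor how long after exposure the skin was taken. In bulk skin, fewer cells of a type and less RNA per cell cannot be told apart. No label ties a library to an animal of its own, so p-values cover the spread among these samples only, and that spread may be technical.

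Type I interferons bind a receptor whose kinases phosphorylate STAT2. It joins IRF9 in a complex that binds the interferon-stimulated response element (ISRE) in the promoters of many target genes. Interferon gamma uses its own receptor, acts through the gamma-activated site (GAS) and drives mainly the GBP and IRG GTPases and antigen presentation. In skin, keratinocytes, resident myeloid cells and plasmacytoid dendritic cells are known sources of interferon, and the products of the stimulated genes block several steps of viral replication.

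Most of the genes with a promoter at hand hold the ISRE core there, a feature the list did not use. RefSeq promoter windows (build GRCm38.p6, 250 bases before to 50 bases after the start) were at hand for 28 of the 38 genes. The core, GAAA followed by any 2 bases and GAAA again, was searched on both strands (TTTC, any 2 bases, TTTC on the other). It was present for 17 of the 28 genes (60.7%), against 3.99% of the 27025 genes with a window. The GAS core TTCNNNGAA can overlap an ISRE core and was also searched on both strands. It was present for 6 of the 28 genes (21.4%), against 9.55% of the 27025 genes. Both cores were present for 4 of the 28 genes and neither for 9. A match is a description of letters and not a binding site. The 6 stretches below are shown because these genes are effectors that differed strongly between libraries (Isg15, Ifit1, Ifit3, Rsad2), form a near-identical pair (Ifit3 and Ifit3b) or stand for the GTPases (Gbp2). Each is 100 bases, 5′ to 3′ on the strand of the gene, with ISRE core matches of either strand in capitals.
Isg15, chr4:156200830-156200929, minus strand: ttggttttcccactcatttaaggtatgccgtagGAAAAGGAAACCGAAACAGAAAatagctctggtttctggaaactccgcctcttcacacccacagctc
Ifit1, chr19:34640759-34640858, plus strand: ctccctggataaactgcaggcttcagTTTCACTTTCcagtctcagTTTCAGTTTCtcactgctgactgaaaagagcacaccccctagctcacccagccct
Ifit3, chr19:34583362-34583461, plus strand: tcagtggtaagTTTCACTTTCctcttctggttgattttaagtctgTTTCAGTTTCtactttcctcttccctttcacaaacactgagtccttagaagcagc
Ifit3b, chr19:34607758-34607857, plus strand: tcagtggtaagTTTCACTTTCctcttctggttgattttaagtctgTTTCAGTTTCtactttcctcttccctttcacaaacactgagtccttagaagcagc
Rsad2, chr12:26456518-26456617, minus strand: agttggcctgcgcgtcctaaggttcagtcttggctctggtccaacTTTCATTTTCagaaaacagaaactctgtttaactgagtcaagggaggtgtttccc
Gbp2, chr3:142620559-142620658, plus strand: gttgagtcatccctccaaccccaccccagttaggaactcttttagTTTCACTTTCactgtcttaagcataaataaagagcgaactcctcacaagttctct
The Ifit3 and Ifit3b stretches differ at 0 of 100 bases. Counting genes with a window, the core was present for all 4 GTPases, both nucleic acid sensors (Ifih1 and Ddx58) and 9 of 13 antiviral effectors. It was also present for 1 of 3 transcription factors (Stat2) and 1 of 6 regulators (Trim30a). Of the 27 ISRE core matches in these windows, 23 lay before the start of the gene.

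As a check of the genotype, Tnfrsf1a had 96.85, 89.26, 105 and 91.95 CPM (reads per 1e+06 reads, after scaling) in KO skin after UVB, against 151, 153, 161.5 and 139.9 CPM in WT skin after UVB, and Tnfrsf1b averaged 20.1 ± 5.53 CPM in KO skin after UVB and 40.8 ± 7.98 CPM in WT skin after UVB (SD, 4 libraries each). Both receptors were lower in KO skin without UVB (log2 fold change -0.74 ± 0.07 SE, adjusted p = 5.43e-05, and -1.47 ± 0.21, adjusted p = 0.00206). The libraries hold 15644375 to 23200649 reads in genes, of which the 38 members took 0.0608 to 0.253%, with 33 to 3898 reads per member and library. Hair keratins and other anagen markers, which the telogen label would put low, summed to 10.6 to 17.8 CPM in KO skin after UVB, 57.6 to 183 CPM in KO control skin, 13.9 to 112 CPM in WT skin after UVB and 703 to 1908 CPM in WT control skin (18 of 18 genes measured). They thus move with UVB in both genotypes and with genotype in control skin, and their part in the results below, those for UVB in WT skin among them, was not tested.

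Compared per length, as reads per kilobase of exon, scaled to the library (RPKM), the members spanned a wide range. Ifi27, an interferon alpha-inducible gene, was highest with a mean of 72.9 ± 12.2 RPKM over the 16 libraries (SD), followed by Bst2 (tetherin, which holds budding virus at the cell surface) with 46.3 ± 18.4 RPKM and Gbp2, a guanylate-binding protein, with 30.9 ± 14.6 RPKM. Ifit3, Igtp, Isg15 and Ifi35 averaged between 19.1 and 21.3 RPKM, closer to each other than their SDs over libraries, which ran from 3.86 RPKM for Ifi35 to 17.5 RPKM for Isg15. At the low end, Ifi44 averaged 0.637 ± 0.417 RPKM, Herc6 1.02 ± 0.357 RPKM and Mx2 1.03 ± 0.858 RPKM. The transcription factors Stat2, Irf7 and Irf9 lay in the middle at 12.02, 11.56 and 11.01 RPKM.

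**Figure D1:**
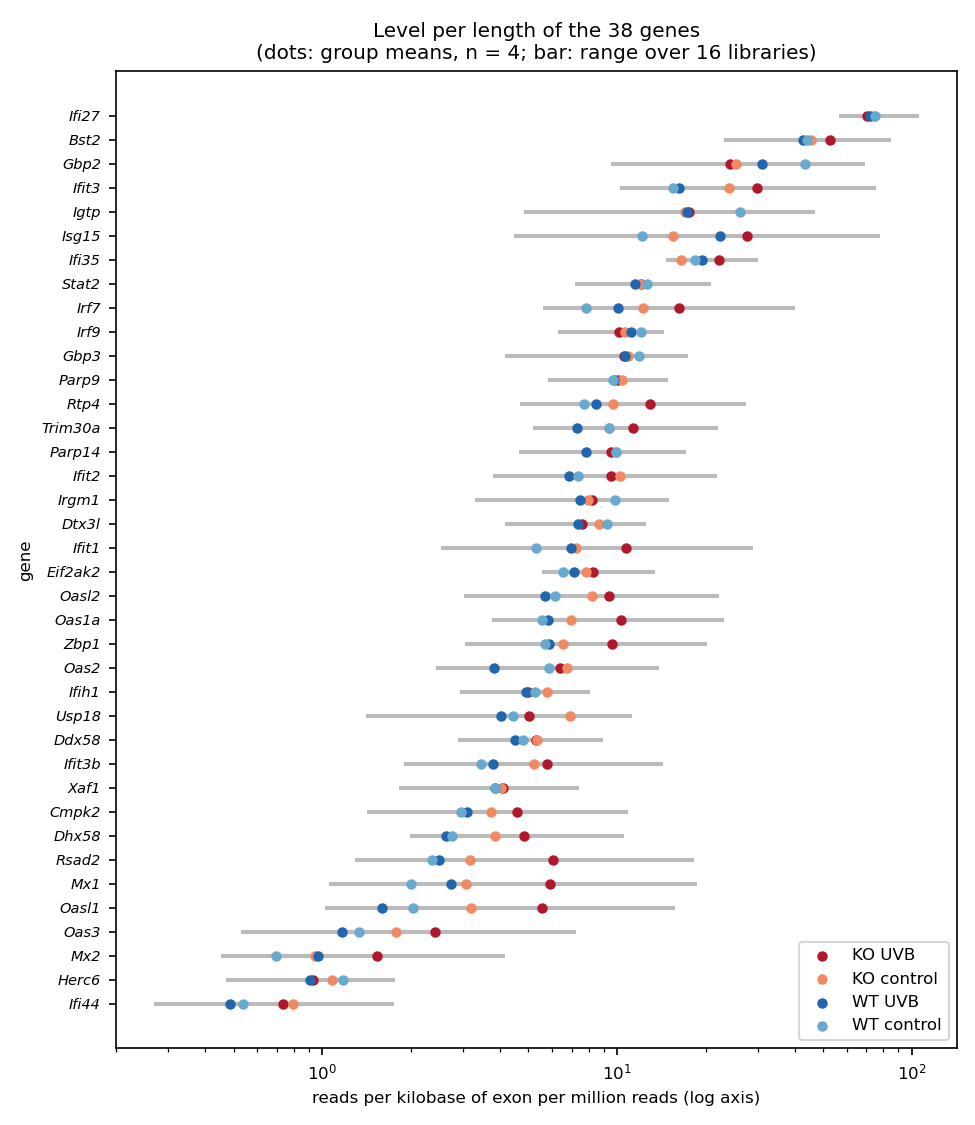
Level of each of the 38 genes in RPKM (log axis), with dots for the means of the 4 groups (4 libraries each) and a grey bar for the range over 16 libraries. Ifi27 is highest (mean 72.9 RPKM) and Ifi44 lowest (0.637 RPKM); the bars of Isg15, Mx1 and Oasl1 reach well beyond the group means on both sides.

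The spread between libraries of 1 group was large for these genes. In KO skin after UVB the median within-group SD of the members was 1.10 on the log2 CPM scale, against 0.240 for all tested genes, and all 38 members lay above that median of all genes. In KO control skin the median SD was 0.533 (all genes 0.204), in WT skin after UVB 0.299 (all genes 0.157), and in WT control skin 0.361 (all genes 0.173). The biological coefficient of variation in the edgeR fit had a median of 0.426 over the members and 0.147 over all tested genes. A log2 fold change of a member carried a median standard error of 0.44, against 0.153 for all genes, in the comparison of UVB with control in KO skin.

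The libraries that stood apart were the same ones for most members. KO UVB library 3 was the highest of its group for 34 of the 38 genes, against 25.2% of all tested genes, and the highest of all 16 libraries for 30. KO UVB library 1 was the lowest of its group for 36 of the 38, against 31.9% of all tested genes, and the lowest of all 16 for 33. For the counts over all 16 libraries, the share of all tested genes was not counted. In the other groups, library 1 was the highest for 30 members in KO control skin, for 34 in WT skin after UVB and for 36 in WT control skin. Of all tested genes, 32.4%, 27.3% and 23.5% were highest in those libraries within their groups.

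**Figure D2:**
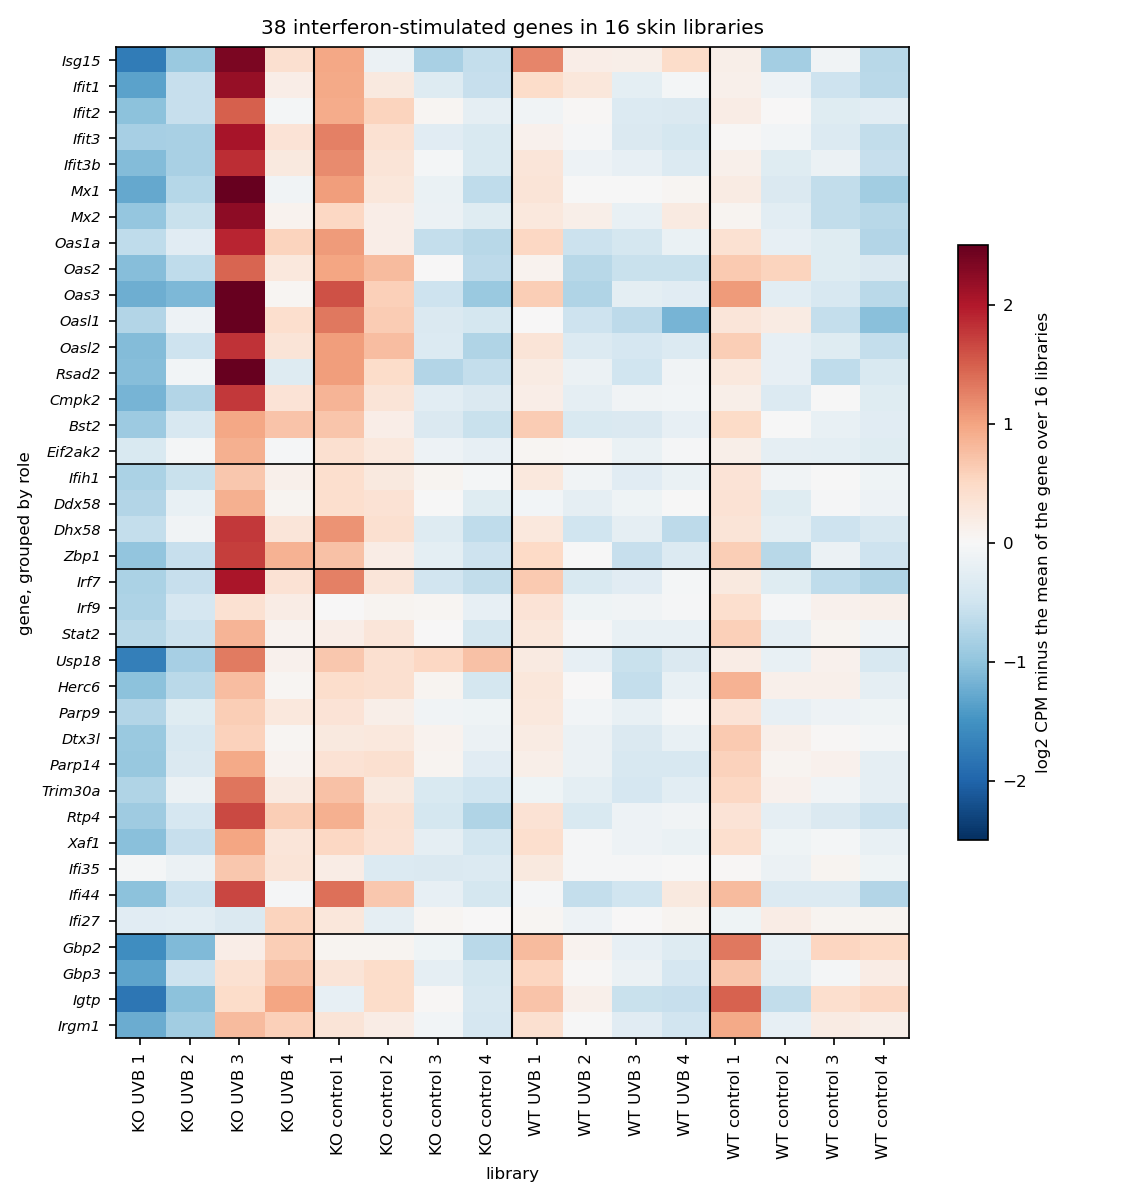
Colour gives log2 CPM minus the mean of the gene over the 16 libraries (columns), with values beyond 2.5 drawn at the limit; rows are the 38 genes by role and black lines separate groups and roles. KO UVB library 3 is the reddest column of its group for 34 of the 38 rows and KO UVB library 1 the bluest for 36, so the strongest contrast in the picture lies within 1 group.

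The mean of the members' centred log2 CPM gives each library a score. The KO UVB libraries 1 to 4 scored -0.97, -0.52, 1.37 and 0.28, the KO control libraries 0.69, 0.31, -0.19 and -0.41, the WT UVB libraries 0.31, -0.16, -0.28 and -0.21, and the WT control libraries 0.44, -0.17, -0.16 and -0.32. The highest and the lowest of the 16 scores were both in KO skin after UVB, and the ranges of all 4 groups overlapped. Relative to the median of the other 3 KO UVB libraries, library 3 was 3.91 times higher at the median member, against 1.003 times at the median tested gene. By role this ratio was 6.51 for the 16 antiviral effectors, 2.98 for the 4 nucleic acid sensors, 2.61 for the 3 transcription factors, 2.73 for the 11 regulators and adaptors, and 2.61 for the 4 GTPases. The largest were for Oas3 (12.9 times) and Mx1 (12.01 times), and Ifi27 was the 1 member below that median in library 3 (0.941 times).

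**Figure D3:**
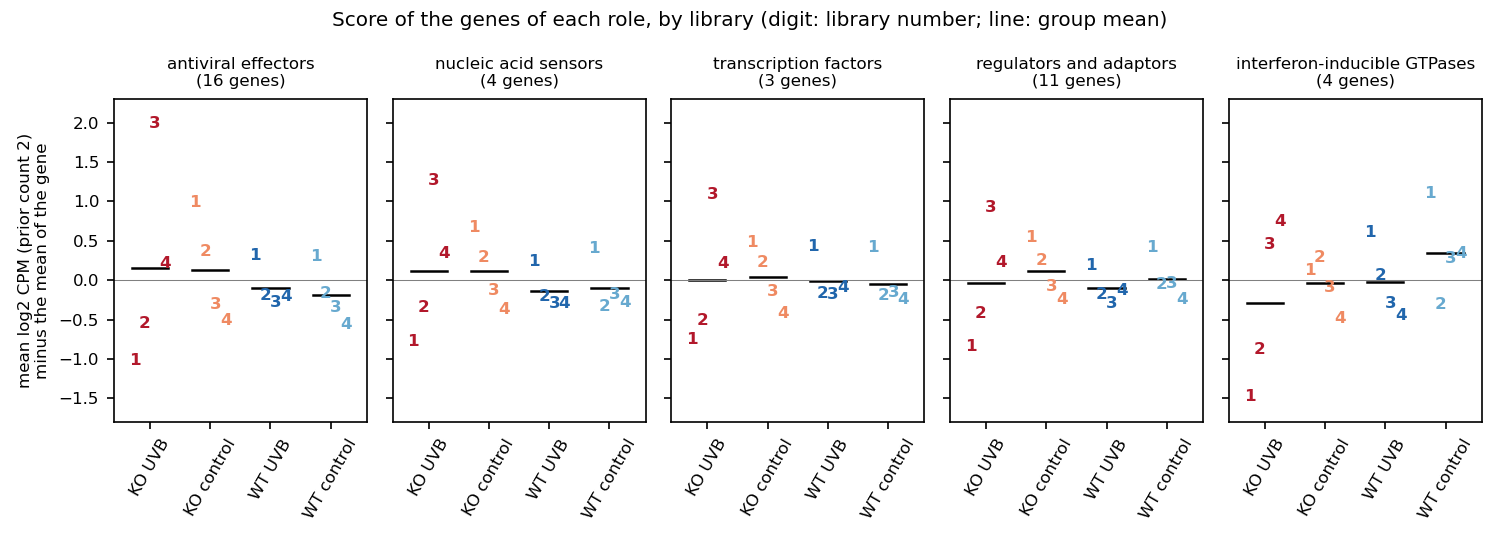
Mean centred log2 CPM of the genes of each role (y axis), one digit per library giving its number, and a line for the mean of each group. KO UVB library 3 tops the effectors, sensors, transcription factors and regulators; for the GTPases KO UVB library 4 (0.74), WT UVB library 1 (0.60) and WT control library 1 (1.10) are higher than KO UVB library 3 (0.45).

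Markers of other cell types also differed between the KO UVB libraries. Neutrophil markers (8 of 10 tested, as Ly6g and Ngp had too few reads) summed to 42.5, 59.6, 418 and 65.0 CPM in the KO UVB libraries 1 to 4. They summed to 29.5 to 51.5 CPM in KO control skin, 23.6 to 57.5 CPM in WT skin after UVB and 26.8 to 35.6 CPM in WT control skin. In the KO UVB libraries S100a8 had 6.51, 9.58, 112 and 14.7 CPM and S100a9 had 13.2, 17.6, 167 and 21.4 CPM. These 2 genes made up most of the sum in library 3. Monocyte and macrophage markers (14 of 14) summed to 2281, 3893, 5147 and 4386 CPM in the KO UVB libraries, against 2228 to 3873 CPM in KO control skin, 1951 to 2919 CPM in WT skin after UVB and 2447 to 4277 CPM in WT control skin. T and NK cell markers (13 of 13) summed to 60.9, 66.9, 113 and 104 CPM in the KO UVB libraries, 75.7 to 100.3 CPM in KO control skin, 66.3 to 106 CPM in WT skin after UVB and 89.9 to 147 CPM in WT control skin. Library 3 was the highest of its group in all 3 lists. In the other groups library 1, highest there for most members, did not lead throughout. For neutrophil markers it was highest in none. It had 44.8 CPM in KO control skin, 40.1 CPM in WT skin after UVB and 29.1 CPM in WT control skin. For monocyte and macrophage markers it was highest except in WT control skin (3754 CPM). For T and NK cell markers it was highest in both WT groups and lowest in KO control skin (75.7 CPM). Plasmacytoid dendritic cell markers (10 of 10, of which Bst2 is also a member) summed to 893, 803, 855 and 748 CPM in the KO UVB libraries, 566 to 695 CPM in KO control skin, 782 to 871 CPM in WT skin after UVB and 602 to 698 CPM in WT control skin. Most of that sum was Ly6d, which keratinocytes also express, with 677, 529, 523 and 386 CPM in the KO UVB libraries, the same order as the keratinocyte markers. Siglech, a lectin of plasmacytoid dendritic cells, had 2.64, 2.68, 6.55 and 5.37 CPM there. Irf8, a myeloid transcription factor, had 24.6, 31.1, 62.3 and 51.8 CPM. Both were highest in library 3, as were Klk1 (0.553 CPM) and Pacsin1 (0.369 CPM). Ccr9 (2.93, 2.91, 2.58 and 1.41 CPM) and Runx2 (8.55, 6.73, 6.96 and 6.55 CPM) were highest in library 1. Tcf4 (115, 141, 125 and 157 CPM) and Cox6a2 (41.4, 59.2, 51.8 and 75.2 CPM) were highest in library 4 and made up most of the sum that follows. The 8 markers other than Ly6d and Bst2 summed to 195, 245, 256 and 298 CPM in the KO UVB libraries, 301 to 332 CPM in KO control skin, 244 to 292 CPM in WT skin after UVB and 259 to 336 CPM in WT control skin. Keratinocyte markers (10 of 10) summed to 64929, 40649, 30329 and 21342 CPM in the KO UVB libraries, highest in library 1, 11610.3 to 19433 CPM in KO control skin, 31559 to 41010.3 CPM in WT skin after UVB and 9945 to 14589 CPM in WT control skin. Krt6a, a keratin of stressed epidermis, had 1622, 1596, 1773 and 237 CPM in the KO UVB libraries, lowest in library 4. The part of these cells in the members' values was not tested.

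Against that spread, no member was called in any comparison at an adjusted p under 0.05 with edgeR's quasi-likelihood test and Benjamini-Hochberg adjustment over all 17531 genes. In KO skin, UVB against control called 0 of 38 members, while 32.3% of all tested genes were called. At an unadjusted p under 0.05 there was 1 member (Ifi35) against 43.2% of all genes. DESeq2 called 1 member (Ifi35) and limma voom with sample quality weights 1 (Usp18). The shares of all genes called by these tools were not counted, as the 32.3% is from edgeR. No member had groups without overlap (25.1% of all genes). The median member log2 fold change was 0.11, against -0.02 for all genes, with 24 members positive and 14 negative. In WT skin, UVB against control also called 0 of 38 (18.8% of all genes). None had an unadjusted p under 0.05 in edgeR (32.9% of all genes), neither DESeq2 nor voom called any, and the median was -0.08, against -0.03 for all genes. That WT median was 0.16 without WT control library 1 and -0.20 without WT UVB library 1, so its sign turned with 1 library.

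Ifi35, an interferon-induced leucine zipper protein that forms a complex with NMI, came closest to a call. It had 31.3, 29.5, 52.1 and 40.4 CPM in KO skin after UVB, against 36.9, 25.7, 25.3 and 25.8 CPM in KO control skin. The groups overlapped through KO control library 1, which was above KO UVB libraries 1 and 2, while the other 3 control libraries lay below all UVB libraries. The log2 fold change was 0.43 ± 0.16 (SE, 95% interval 0.09 to 0.78), with an adjusted p of 0.0514 in edgeR and 0.0326 in DESeq2. Without KO control library 1 it was 0.59 (adjusted p = 0.00744), and without KO UVB library 3 it was 0.26 (adjusted p = 0.194). The call also appeared when KO UVB library 1 (adjusted p = 0.0272) or 2 (adjusted p = 0.0176), or WT UVB library 1, 2 or 3, was left out (adjusted p = 0.0434, 0.0490 and 0.0480 in edgeR). In WT skin Ifi35 had 38.45, 32.0, 31.8 and 32.2 CPM after UVB, against 33.3, 29.5, 33.9 and 30.2 CPM without UVB. The difference of the 2 genotypes' responses to UVB, KO minus WT, was 0.35 ± 0.23 on the log2 scale (adjusted p = 0.540). Averaged over genotypes it was 0.26 ± 0.11 (adjusted p = 0.0813). That average called 0 of 38 members by edgeR and DESeq2 and 1 by voom (Usp18), with 41.5% of all genes called by edgeR. At an unadjusted p under 0.05 it had 1 member, Ifi35, against 50% of all genes.

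Isg15, a ubiquitin-like modifier that is joined to many viral and host proteins, had 3.38, 5.98, 58.8 and 15.2 CPM in KO skin after UVB, against 22.4, 10.3, 6.49 and 7.54 CPM in KO control skin. The 4 KO UVB libraries thus spanned both the lowest and the highest values of the whole set. In WT skin it had 26.5, 12.9, 12.685 and 15.7 CPM after UVB, against 12.682, 6.38, 10.7 and 7.03 CPM without UVB. These groups thus missed an overlap only in the third decimal. Isg15 was the 1 member of 38 without overlap there, against 28.2% of all tested genes. The log2 fold change in WT skin was 0.87 ± 0.68 (adjusted p = 0.394) and in KO skin 0.83 ± 0.67 (adjusted p = 0.362). Averaged over genotypes it was 0.85 ± 0.48 (adjusted p = 0.164), and without KO UVB library 3 it was 0.19 (adjusted p = 0.674).

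Mx1, a dynamin-like GTPase that traps viral nucleocapsids, had 3.98, 5.87, 70.5 and 9.14 CPM in KO skin after UVB, against 12.03, 9.62, 9.59 and 9.99 CPM in WT skin after UVB. In 3 of 4 KO UVB libraries it was below every WT UVB library, and in library 3 far above them. On the log2 scale, the fold change of KO against WT after UVB was 1.12 ± 0.69 (adjusted p = 0.442), and -0.70 without KO UVB library 3 (adjusted p = 0.465). Without UVB it had 19.9, 11.8, 8.62 and 6.26 CPM in KO skin, against 11.2, 7.49, 6.33 and 5.33 CPM in WT skin, and averaged over treatments the KO difference was 0.87 ± 0.49 (adjusted p = 0.472; -0.039 without KO UVB library 3).

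Rsad2 (viperin, which makes a chain-terminating nucleotide) had 5.57, 11.2, 79.2 and 9.33 CPM in KO skin after UVB, against 13.5, 10.6, 8.23 and 10.9 CPM in WT skin after UVB. Again 1 KO library lay outside the WT range on the high side, and 1 lay below it. The log2 fold change of KO against WT after UVB was 1.29 ± 0.67 (adjusted p = 0.357) and became -0.32 without KO UVB library 3 (adjusted p = 0.774). Set against KO control skin, with 24.1, 16.05, 7.08 and 7.76 CPM, the UVB difference was 0.94 ± 0.66 (adjusted p = 0.294), and -0.66 without that library.

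Oasl1, a 2′-5′-oligoadenylate synthetase-like protein that in mice restrains translation of Irf7, had the largest fold of any member. It had 3.58, 5.47, 41.1 and 7.96 CPM in KO skin after UVB, against 5.99, 4.17, 3.78 and 2.66 CPM in WT skin after UVB. KO UVB libraries 1 and 2 lay within the WT range and libraries 3 and 4 above it. On the log2 scale, the fold change was 1.81 ± 0.66 (95% interval 0.40 to 3.21), with an unadjusted p of 0.0154 and an adjusted p of 0.191. Without KO UVB library 3 it was 0.44 (adjusted p = 0.729). Averaged over treatments the KO difference was 1.23 ± 0.46 (adjusted p = 0.231; 0.55 without KO UVB library 3), and the interaction was 1.14 ± 0.92 (adjusted p = 0.629), -0.22 without library 3.

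**Figure D4:**
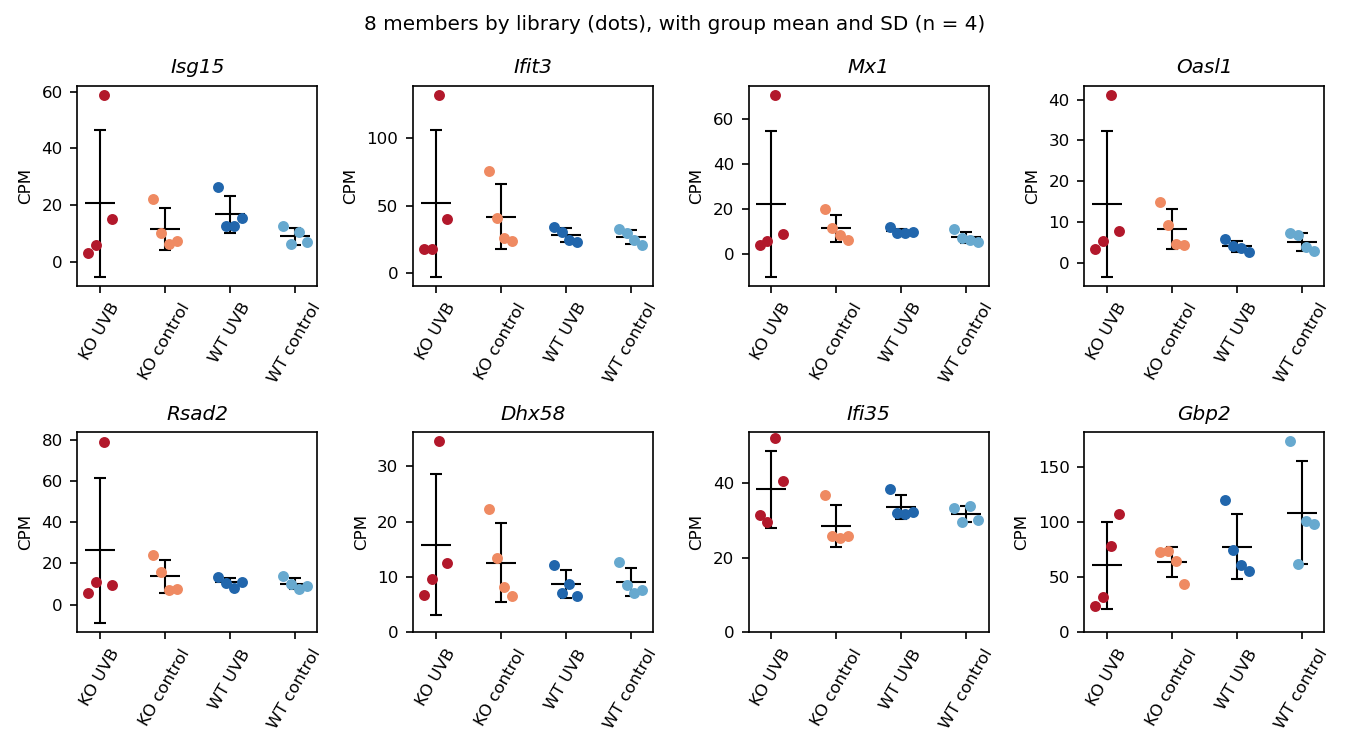
CPM of 8 members in the 4 groups, with 1 dot per library and black bars for the mean and SD of 4 libraries. In 6 of the 8 panels 1 KO UVB dot, library 3, lies far above all others (for Mx1, 70.5 against at most 19.9 CPM elsewhere); Ifi35 has a narrow spread and Gbp2 peaks in WT control library 1 (174 CPM).

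Most members leaned the same way in KO against WT after UVB, where 34 of 38 were positive with a median log2 fold change of 0.41 (all genes 0.01), but 0 of 38 were called (0.856% of all genes) and 1, Oasl1, had an unadjusted p under 0.05 (16.3% of all genes). DESeq2 and voom called 0, and no member had groups without overlap (8.16% of all genes). Without KO UVB library 3 the median was -0.25, 30 of 38 members were negative and 0 were called (0.428% of all genes), so the direction of the list turned with 1 library. Without UVB, 27 of 38 were positive with a median of 0.24 (all genes 0.00), 0 were called by edgeR, DESeq2 or voom (1.69% of all genes), and 0 had an unadjusted p under 0.05 in edgeR (10.9% of all genes) and DESeq2, and 1 in voom. That median was -0.02 without KO control library 1 and 0.42 without WT control library 1. Averaged over treatments 0 were called by any of the 3 tools (1.77% of all genes by edgeR), 1, Oasl1, had an unadjusted p under 0.05 (13.9% of all genes), and the median was 0.39, or 0.00 without KO UVB library 3. For the interaction of genotype and UVB 0 were called (0.0228% of all genes) by any of the 3 tools, 0 had an unadjusted p under 0.05 in edgeR (12.8% of all genes), and the median was 0.24, or -0.32 without KO UVB library 3.

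Among the other antiviral effectors, Ifit3, a tetratricopeptide adaptor of the complex that binds foreign RNA ends, had 17.8, 17.95, 132 and 40.2 CPM in KO skin after UVB, against 34.2, 30.8, 24.6 and 23.3 CPM in WT skin after UVB. Its log2 fold change of KO against WT was 0.88 ± 0.54 after UVB (adjusted p = 0.436; -0.16 without KO UVB library 3) and 0.76 ± 0.38 averaged over treatments (adjusted p = 0.402; 0.24 without that library). The near-identical neighbour Ifit3b had 3.78, 4.56, 28.5 and 9.46 CPM in KO skin after UVB and 9.865, 7.25, 6.92 and 6.27 CPM in WT skin after UVB, the same order of libraries as Ifit3 in both groups. Of the 50-base stretches of Ifit3, 51.2% also occur in another gene, all in Ifit3b, so reads can be lost or split between the pair and each level is uncertain. The same holds for Oas1a, an oligoadenylate synthetase, with 57.6% shared with Oas1g. Herc6 (12.5%), Igtp (11.8%, with Irgm2) and Rtp4 (11.6%) shared more than 10% too, and 15 members shared none.

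Ifit1 averaged 28.5 ± 32.7 CPM in KO skin after UVB, 19.3 ± 9.49 CPM in KO control skin, 18.6 ± 3.97 CPM in WT skin after UVB and 14.1 ± 3.58 CPM in WT control skin (SD, 4 libraries each). Oas1a averaged 19.5 ± 16.6 CPM in KO skin after UVB, 13.2 ± 8.06 CPM in KO control skin, 10.96 ± 4.01 CPM in WT skin after UVB and 10.5 ± 3.47 CPM in WT control skin. Oasl2 averaged 59.8 ± 55.7 CPM in KO skin after UVB, 52.3 ± 28.8 CPM in KO control skin, 36.3 ± 9.75 CPM in WT skin after UVB and 39.2 ± 15.4 CPM in WT control skin. In each of these genes the SD in KO skin after UVB exceeded every difference between group means. Of the 16 effectors, 14 had a positive fold after UVB in KO skin (median log2 fold change 0.38) and 16 were positive in KO against WT after UVB (median 0.70). In edgeR 0 were called in either comparison, against 32.3% and 0.856% of all genes. Without KO UVB library 3, 16 of the 16 were negative for UVB in KO skin (median -0.65) and 13 in KO against WT after UVB (median -0.32).

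Of the sensors, Dhx58 (LGP2, a helicase partner of the RNA sensors RIG-I and MDA5) had 6.76, 9.58, 34.5 and 12.5 CPM in KO skin after UVB, against 12.2, 7.15, 8.67 and 6.49 CPM in WT skin after UVB. Only libraries 3 and 4 of the KO UVB group lay above the WT range. The log2 fold change of KO against WT was 0.88 ± 0.46 after UVB (adjusted p = 0.362; 0.15 without KO UVB library 3) and 0.68 ± 0.33 averaged over treatments (adjusted p = 0.368; 0.32 without that library). Ifih1 (MDA5), Ddx58 (RIG-I) and Zbp1, a sensor of Z-form nucleic acids, were not called in any comparison. The sensors' median log2 fold change was 0.16 for UVB in KO skin and -0.08 for UVB in WT skin.

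The transcription factors differed among themselves in spread. Irf7, the factor that amplifies interferon production, had 21.1, 24.6, 151 and 47.2 CPM in KO skin after UVB, against 58.1, 28.0, 30.3 and 35.4 CPM in WT skin after UVB (log2 fold change 0.69 ± 0.56, adjusted p = 0.571; -0.30 without KO UVB library 3). Stat2 averaged 71.5 ± 36.9 CPM in KO skin after UVB, 70.6 ± 14.5 CPM in KO control skin, 68.1 ± 11.2 CPM in WT skin after UVB and 74.6 ± 20.0 CPM in WT control skin. Its 4 group means differed by less than any of these SDs. Irf9 had a ratio of KO UVB library 3 to the median of the other 3 KO UVB libraries of 1.74, against 6.15 for Irf7 and 2.61 for Stat2.

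Among the regulators, Usp18 encodes the protease that removes ISG15 from proteins and dampens receptor signalling. Its values did not overlap between the genotypes without UVB, but it was not called. It had 20.4, 16.9, 18.4 and 21.4 CPM in KO control skin, against 14.6, 11.3, 13.9 and 9.71 CPM in WT control skin. This lack of overlap held for 1 of 38 members, a smaller share than the 7.68% of all tested genes. On the log2 scale, the fold change was 0.64 ± 0.42 (adjusted p = 0.670). After UVB in KO skin it had 3.93, 7.18, 31.4 and 13.7 CPM, below every KO control library in 3 of 4 and above all in library 3. The UVB difference in KO skin was -0.45 ± 0.42 (adjusted p = 0.437) with all libraries.

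Leaving out KO UVB library 3 turned the comparison of UVB with control in KO skin. The median member log2 fold change was then -0.49 (all genes -0.02), and 36 of 38 members were negative. Library 3 had the highest member score, so the lower values without it follow in part from the choice. The p-values of that fit do not allow for this choice. Usp18 fell by 1.205 on the log2 scale (adjusted p = 0.0103) and Ifit2, a relative of Ifit1 that binds viral RNA, fell by 0.89 (adjusted p = 0.0211). These 2 of 38 stand against 11.6% of all genes called lower in that fit, and 7 members against 39% of all genes had an unadjusted p under 0.05. Voom with sample quality weights also called Usp18 (-1.11, adjusted p = 0.0113). It keeps all libraries but can give library 3 less weight, so it is not separate support. Averaged over genotypes, Usp18, Ifit2 and Dtx3l were lower without library 3 (adjusted p = 0.0186, 0.0384 and 0.0407; 18.8% of all genes were called lower in edgeR). Dtx3l encodes an E3 ligase that acts with PARP9. Without KO UVB library 4, Ifi27 was called lower in KO skin after UVB (-0.33, adjusted p = 0.0196), its value in that library being 155 CPM, against 82.7 to 87.9 CPM in the other 3. Nothing in the labels sets library 3 apart, and all values above include it unless stated.

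**Figure D5:**
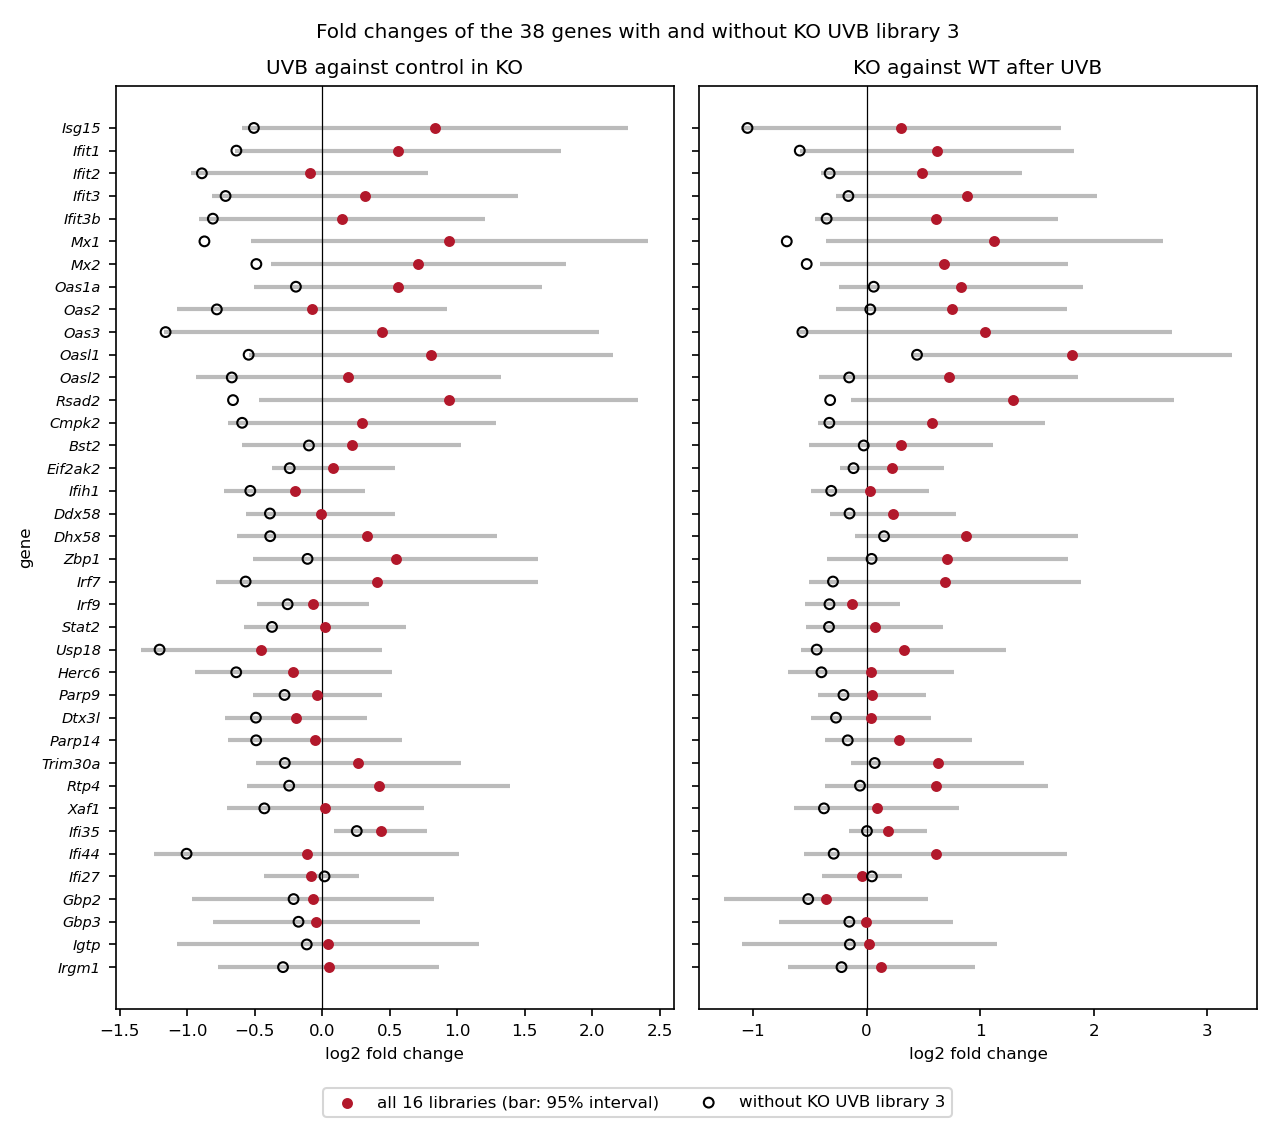
Log2 fold change (x axis) of each of the 38 genes for UVB against control in KO skin (left) and KO against WT after UVB (right); red dots use all 16 libraries, with 95% intervals as grey bars, and open circles leave out KO UVB library 3. The open circles lie left of 0 for 36 genes on the left and 30 on the right, while 24 and 34 red dots lie right of 0.

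The 4 interferon-inducible GTPases, which interferon gamma is known to drive, had another order of libraries. Gbp2, which attacks the vacuoles of intracellular microbes, had 24.0, 32.4, 78.8 and 108 CPM in KO skin after UVB, against 73.0, 73.7, 64.5 and 43.7 CPM in KO control skin. In WT skin it had 120.5, 74.8, 60.8 and 55.6 CPM after UVB, against 174, 61.7, 101 and 98.6 CPM without UVB. KO UVB library 4 was above library 3, and the highest value of all was in WT control library 1. The log2 fold change of KO against WT was -0.77 ± 0.42 without UVB (adjusted p = 0.559; -0.45 without WT control library 1) and -0.57 ± 0.30 averaged over treatments (adjusted p = 0.427). Igtp, an immunity-related GTPase, had 9.79, 16.8, 46.8 and 67.9 CPM in KO skin after UVB, against 29.8, 46.8, 34.8 and 26.0 CPM in KO control skin. It averaged 34.8 ± 15.6 CPM in WT skin after UVB and 52.8 ± 30.2 CPM in WT control skin (SD, 4 libraries each). Its log2 fold change for UVB in WT skin was -0.60 ± 0.52 (adjusted p = 0.453; -0.14 without WT control library 1), and for KO against WT without UVB -0.62 ± 0.52 (adjusted p = 0.768; -0.18 without that library). KO UVB library 4 was the highest of its group for 3 of the 4 GTPases and library 3 for 1. Dendritic and Langerhans cell markers (12 of 12) summed to 1120.1, 1643, 3376 and 5046 CPM in the KO UVB libraries 1 to 4, the same order as Gbp2 and Igtp. Of these sums, 898, 1456, 3152 and 4819 CPM were 4 MHC class II genes (H2-Aa, H2-Ab1, H2-Eb1 and Cd74), which interferon gamma is known to induce. The other 8 markers summed to 222, 187, 225 and 226 CPM in the KO UVB libraries, with no such order. All 12 summed to 2344 to 3639 CPM in KO control skin, 2210.1 to 3638 CPM in WT skin after UVB and 3647 to 5165 CPM in WT control skin, and their part in the GTPase values was not tested.

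Around the members, the transcripts of the interferons themselves were near or at 0. None of 20 ligand genes passed the filter on low counts. Ifng had 0 to 24 reads per library and Ifnk, the interferon of keratinocytes, 0 to 21, with 14 reads in KO UVB library 3 and 21 in KO control library 4. Ifnb1 and Ifne had 0 or 1 read, and the 16 other ligand genes had 0 reads in every library. A count of 0 allows up to 3 reads, or 0.129 to 0.192 CPM in these libraries, counting error only, so lower ligand levels were not detectable at this depth. The files hold 0 multimapping reads, so this limit does not cover reads that match more than 1 ligand gene.

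Of 16 receptor and JAK-STAT genes, 1 was called in WT skin after UVB, lower (8.6% of all genes were called lower). Ifngr1, the ligand-binding chain of the interferon gamma receptor, fell by 0.44 on the log2 scale (adjusted p = 0.0231), with 128, 110.4, 124 and 120.3 CPM after UVB, against 156, 187, 131 and 181 CPM without UVB. The groups did not overlap. The call was lost in 4 of 16 fits that left out 1 library (WT control 2 or 4, WT UVB 2 or 4; adjusted p up to 0.0757). None of the 16 was called by edgeR for UVB in KO skin or for KO against WT. At an unadjusted p under 0.05 there was 1 of them for UVB in KO skin (43.2% of all genes), 3 for KO against WT after UVB (16.3% of all genes) and 0 for KO against WT without UVB (10.9% of all genes).

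Of 21 nucleic acid sensing genes outside the members 19 were tested, and in KO skin after UVB 5 rose and 0 fell (17.2% of all genes rose). Rnaseh2b, a subunit of the ribonuclease that removes ribonucleotides from DNA, had 17.5, 22.3, 18.9 and 18.7 CPM in KO skin after UVB, against 10.3, 10.2, 11.4 and 12.1 CPM in KO control skin, with no overlap (log2 fold change 0.81 ± 0.10, adjusted p = 5.35e-05). The subunits Rnaseh2c (0.57 ± 0.10, adjusted p = 0.000902) and Rnaseh2a (0.47 ± 0.11, adjusted p = 0.00465) rose as well, as did Myd88, the adaptor of most Toll-like receptors (0.51 ± 0.13, adjusted p = 0.00751; 0.32 without KO UVB library 3, still called). Cgas, the cytosolic DNA sensor, rose by 0.52 ± 0.17 (adjusted p = 0.0331), a call lost in 6 of 16 fits that left out 1 library (KO control 1, 2 or 3, KO UVB 1, 2 or 3; adjusted p up to 0.113). In WT skin 1 of the 19 rose after UVB (10.2% of all genes rose) and 2, described next, fell. Rnaseh2b rose (0.38 ± 0.10, adjusted p = 0.0118), and it was lower in KO skin without UVB than in WT skin without UVB (-0.50 ± 0.10, adjusted p = 0.0134).

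The 2 sensing genes that fell in WT skin after UVB were Ifi203 and Ifi204, and the further interferon-induced genes that fell were Ifi204, Ifi205 and Ifi207. These 4 encode p200 proteins, interferon-inducible proteins that bind DNA. Aim2, a DNA sensor of the same family in the sensing list, was not called (-0.28 ± 0.15, adjusted p = 0.198). Ifi207 had 40.6, 29.3, 42.8 and 30.8 CPM after UVB, against 89.8, 95.4, 55.7 and 75.4 CPM without UVB (log2 fold change -1.14 ± 0.26, adjusted p = 0.00672). Ifi203 fell by 0.97 (adjusted p = 0.0117), Ifi204 by 0.94 (adjusted p = 0.0189) and Ifi205 by 0.84 (adjusted p = 0.0408). The groups did not overlap for Ifi203, Ifi204 and Ifi207; for Ifi205 they did, with 76.0, 42.9, 49.2 and 51.7 CPM after UVB, against 118, 139, 61.6 and 74.7 CPM without UVB. The Ifi204 call was lost without WT control library 1 or WT UVB library 2 or 4 (adjusted p up to 0.0617), and the Ifi205 call without WT control library 1 or 2, WT UVB library 2, 3 or 4 or KO UVB library 2 (adjusted p up to 0.139). Of the 32 tested genes of the further list, 3 fell in WT skin after UVB (8.6% of all genes fell) and 2 rose in KO skin after UVB (17.2% of all genes rose), the first close to the share of all genes and the second below it. Those that rose were Slfn9 (0.73 ± 0.21, adjusted p = 0.0161) and Ifitm1, which blocks viral entry (0.92 ± 0.27, adjusted p = 0.0175). Without KO UVB library 3 neither was called (adjusted p = 0.0607 and 0.0696), and Slfn9 was also lost without KO control library 3 (adjusted p = 0.0556).

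KO against WT after UVB called 2 of these 32 genes (Ifi204 is also in the sensing list), both higher (0.496% of all genes were called higher). Ifi204 had 49.7, 64.5, 71.4 and 80.2 CPM in KO skin after UVB, against 30.0, 22.5, 33.2 and 19.8 CPM in WT skin after UVB (1.33 ± 0.26, adjusted p = 0.0254), and Ifi207 had 59.9, 79.2, 123 and 82.9 CPM in KO skin after UVB, against 40.6, 29.3, 42.8 and 30.8 CPM in WT skin after UVB (1.27 ± 0.26, adjusted p = 0.0315). In both, every KO UVB library lay above every WT UVB library. Both calls were lost in 5 of 16 fits that left out 1 library (WT UVB 1, 2 or 4, KO UVB 2 or 3; adjusted p up to 0.0894 for Ifi204 and 0.111 for Ifi207).

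Of 22 tested interferon gamma and antigen presentation genes, 1 was called in KO against WT without UVB (1.28% of all genes were called lower) and 0 in KO against WT after UVB, where 2 had an unadjusted p under 0.05 in edgeR (16.3% of all genes). Cxcl9, a T cell attractant that interferon gamma induces, had 6.41, 4.996, 4.20 and 3.601 CPM in KO control skin, against 40.6, 10.7, 23.9 and 30.2 CPM in WT control skin. All KO values lay below all WT values. On the log2 scale, the fold change was -2.45 ± 0.59 (adjusted p = 0.0480), a call lost in 9 of 16 fits that left out 1 library (any KO control, WT control 1, 3 or 4, WT UVB 2 or 4; adjusted p up to 0.150). Of all 26 alternative fits, 13 lost the call without UVB. Averaged over treatments the Cxcl9 fold change was -2.09 ± 0.41 (adjusted p = 0.0177), called in all 16 fits that left out 1 library (1.01% of all genes were called lower). With no filter beyond 1 read that averaged call was lost (adjusted p = 0.0685). T and NK cell markers summed to 75.7 to 100.3 CPM in KO control skin and 89.9 to 147 CPM in WT control skin. Their part in the Cxcl9 values was not tested. Nlrc5, the other called gene of this list, was lower after UVB averaged over genotypes (-0.39 ± 0.15, adjusted p = 0.0493). In that comparison 41.5% of all genes were called in either direction. The Nlrc5 call was lost in 11 of 16 fits that left out 1 library (adjusted p up to 0.124). Of 11 feedback inhibitors, Ptpn1 (0.37 ± 0.10, adjusted p = 0.00863) and Ptpn2 (0.41 ± 0.09, adjusted p = 0.00422), phosphatases of the JAK kinases, rose in KO skin after UVB. These 2 of 11 are close to the 17.2% of all genes that rose there. In KO skin after UVB Ptpn2 had 22.9, 25.4, 28.7 and 24.0 CPM, against 21.6, 17.5, 17.6 and 19.2 CPM in KO control skin.

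The lists also differed in which KO UVB library was highest, counted over their genes that are not members. Of all tested genes, 25.2% were highest in library 3 and 31.7% in library 4. The further interferon-induced genes were highest in library 3 for 26 of 32 and in library 4 for 6, with a median of 2.64 times the other libraries' median in library 3. The interferon gamma and antigen presentation genes were highest in library 3 for 3 of 22 and in library 4 for 19, with a median of 1.71 times in library 3. Gbp2, Gbp3 and Igtp were highest in library 4, as was Ifi27, and the other 34 members in library 3.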

How the data were processed

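RNA from 16 samples of mouse dorsal skin was sequenced as poly(A)-enriched, strand-specific libraries, per the labels' protocols. The authors' deposited values are raw read counts per gene, made with STAR on GRCm39 per the submitters' processing notes, with no version or annotation named. The files give an unstranded count and a count per strand. The reverse-strand counts were used, since they hold 94.7 to 96.1% of the stranded reads. Summary lines that name no gene were kept out (unmapped 10.7 to 19.5%, no feature 7.25 to 10.2%, ambiguous 1.18 to 1.42% and 0 multimapping reads). A combined table has 17 value columns with no sample names and was not used. Gene names and exon lengths came from GENCODE M21, which is built on GRCm38, matched on gene ID: 38 of 38 members and 52083 of 55359 IDs had a name. Promoters are RefSeq's on GRCm38.p6, and none was at hand for 10 members.

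Counts were fitted as 1 model of 4 groups with edgeR 4.0.16 (quasi-likelihood, robust, TMM, filterByExpr) in R 4.3.3, and p-values were adjusted over all 17531 genes (Benjamini-Hochberg, threshold 0.05). CPM are scaled by TMM (factors 0.940 to 1.07), and log2 CPM have a prior count of 2. The scripts were tested on simulated data. Alternatives were DESeq2 1.42.0, limma voom 3.58.1 with sample quality weights, other scalings and filters, unstranded counts, a replicate block, the 2 groups compared alone, and each library left out. Pairs of libraries of a group differed by far more than counting noise (chi-square per degree of freedom 14.1 to 149).

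The members and lists were chosen with earlier results of these data known. Members are named with all library values if called in any comparison, and otherwise the 8 with the smallest unadjusted p (Oasl1, Ifi35, Dhx58, Ifit3, Rsad2, Gbp2, Isg15 and Mx1), to which Ifit1, Ifit3b, Oas1a, Oasl2, Irf7, Stat2 and Igtp were always added. Up to 5 called genes a list are named from the other lists. Usp18, Ifit2, Dtx3l, Irf9, Ifi27, Cgas, Aim2, Siglech, Irf8, Ly6d and Ifnk are named beside these and were chosen after their values were seen. The same holds for Klk1, Pacsin1, Ccr9, Runx2, Tcf4, Cox6a2, S100a8 and S100a9.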

Additional observations from a re-analysis of the deposited data

Results flagged for a closer look

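In 17 of the 152 combinations of a member and a group, 1 of the 4 libraries lay so far above the other 3 that its gap took up nearly the whole range of the group (Dixon's test, 95% level). Chance alone gives about 1 such case in 20 groups if values are normally distributed, and members of 1 library are not independent of each other. The share over all tested genes was not counted, so the 17 cannot be read as a trait of these genes. In KO skin after UVB, library 3 stood apart in this way for Mx1 (70.5 CPM), Mx2 (14.99 CPM), Oas3 (51.3 CPM), Oasl1 (41.1 CPM) and Rsad2 (79.2 CPM), and library 4 for Ifi27 (155 CPM). In KO control skin, library 1 stood apart for Ifi35 (36.9 CPM). In WT skin after UVB, library 1 stood apart for Mx1 (12.03 CPM), Oas2 (23.8 CPM), Oasl2 (50.9 CPM), Irf9 (73.7 CPM), Ifi35 (38.45 CPM) and Bst2 (60.4 CPM). In WT control skin, library 1 stood apart for Oas3 (18.2 CPM), Ifi44 (5.85 CPM), Parp9 (60.3 CPM) and Eif2ak2 (41.1 CPM). All 17 were high values and none was low, a direction that the CPM scale favours.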

How the results depend on the processing

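The count of called members was 0 in every comparison of the edgeR fit and became 1 for UVB in KO skin with DESeq2, with DESeq2 size factors in edgeR and with unstranded counts (Ifi35 each time), and 1 with voom (Usp18), which also called 1 averaged over genotypes. Leaving out 1 library moved the count for UVB in KO skin between 0 and 2 and averaged over genotypes between 0 and 3, and the median member log2 fold change of KO against WT after UVB between -0.25 and 0.68. The lowest and highest log2 fold changes with 1 library left out were -0.51 and 1.35 for Isg15 and -0.66 and 1.34 for Rsad2 for UVB in KO skin. For KO against WT after UVB they were -0.70 and 1.45 for Mx1, -0.32 and 1.60 for Rsad2, -0.16 and 1.15 for Ifit3 and -0.30 and 0.95 for Irf7. They were -0.039 and 1.04 for Mx1 averaged over treatments, and -0.22 and 1.57 for the interaction of Oasl1. Voom gave -0.30 for Mx1, -0.10 for Ifit3 and -0.14 for Irf7 in KO against WT after UVB. A fit without KO UVB libraries 3 and 4 was added after seeing the data. These are the 2 KO UVB libraries with the highest member scores, so its lower values follow in part from the choice. It called 19 members for UVB in KO skin (31% of all genes; median -0.89), 14 averaged over genotypes (44% of all genes), 1 for the interaction (0.37% of all genes; median -0.77) and 2 for KO against WT averaged over treatments (2.69% of all genes), and gave a median of -0.62 for KO against WT after UVB. Its values were -1.33 for Isg15 and -0.72 for Rsad2 for UVB in KO skin, and -0.23 for Isg15 averaged over genotypes. For KO against WT after UVB it gave -1.07 for Mx1, -0.37 for Rsad2, -0.66 for Ifit3, -0.082 for Dhx58 and -0.73 for Irf7, averaged over treatments -0.22 for Mx1 and -0.013 for Ifit3, and -0.55 for the interaction of Oasl1. The causes were not tested. Libraries with the same replicate number did not deviate together (correlations -0.40 to 0.22, over 0.1 in 3 of 24 pairs, and 4 of 16 libraries were closest to their own number), so the numbers do not pair the samples. With the replicate number as a block, 0 members were called in each comparison, 5169 of all genes were called for UVB in KO skin and 77 for KO against WT after UVB, and the median member log2 fold change for UVB in KO skin was 0.05. The block ended the KO against WT calls of Ifi204 (adjusted p = 0.0512) and Ifi207 (0.0679) after UVB and of Cxcl9 without UVB (0.0867). It also ended the Nlrc5 call for UVB averaged over genotypes (0.075), and of the genes named it changed no other call. With no filter beyond 1 read, the calls of Ifi204 (adjusted p = 0.0627) and Ifi205 (0.118) for UVB in WT skin were lost. The same filter ended the KO against WT calls of Ifi204 (0.0668) and Ifi207 (0.0829) after UVB. It also ended those of Cxcl9 without UVB (0.173) and averaged over treatments (0.0685), and of Nlrc5 (0.126). A mean count of at least 100 ended the Cxcl9 call without UVB (adjusted p = 0.0815). Unstranded counts ended that call (0.052) and the Nlrc5 call (0.0573). The 2 groups compared alone ended Cgas in KO skin (0.0804), Ifi205 in WT skin (0.0632) and Ifi207 in KO against WT (0.0518). Library totals without TMM ended Cgas (0.0637). Without KO UVB libraries 3 and 4, Ifi204 (0.0857) and Ifi207 (0.11) were lost in KO against WT after UVB. Every member had at least 33 reads in each library, and at the lowest of these counts the depth limits the precision as well.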
